A study of Mus musculus with 6 samples.

Results

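Aoc1, the gene of diamine oxidase, was measured together with the genes of polyamine metabolism in mouse embryonic kidney at E18.5, taken whole. The set holds 10 genes. Aoc1 was chosen by its measured rise in FoxD1;Dicer over control kidneys on these arrays, and the other 9 as its pathway (Odc1, Amd1, Srm, Sms, Sat1, Smox, Paox, Oaz1 and Azin1). All probes whose annotation carried one of these symbols were taken, which gave 12 probes of 6 genes, out of 45273 intact probes and 19054 named genes on the array. Aoc1, Odc1 and Azin1 each had 1 probe, Sms had 1, Srm had 3 and Smox had 5. Amd1, Sat1, Paox and Oaz1 had 0 probes named for them in the annotation used here, so no level is given for these 4 genes.

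Illumina MouseWG-6 v2.0 arrays were hybridised with biotin-labelled cRNA from 6 pools of kidneys, and every pool combined 2 embryos of 1 genotype. Each of 3 litters gave 1 FoxD1;Dicer pool and 1 control pool, and the values of the 3 pools of a group are always given in the order of litters 1, 2 and 3. FoxD1;Dicer embryos carried a GFP-Cre fusion in the endogenous FoxD1 locus and floxed Dicer alleles (FoxD1GC;Dicer fl/fl), so that Cre acts in the renal stroma and the cells that descend from it while the rest of the kidney keeps Dicer. Controls were Cre-negative littermates, and whether they carried floxed Dicer is not stated here. The groups therefore differ in the Cre allele at FoxD1 as well as in Dicer, and these cannot be told apart. Pools of different litters shared no embryo. In whole kidney, fewer cells of a type and less RNA per cell cannot be told apart either.

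Polyamines are small positively charged molecules that bind nucleic acids and are needed for growth and translation. Ornithine decarboxylase (Odc1) makes putrescine from ornithine, and spermidine synthase (Srm) and spermine synthase (Sms) extend it with aminopropyl groups that come from S-adenosylmethionine after the decarboxylase Amd1 has acted on it. Spermidine and spermine are taken back down by the acetyltransferase Sat1 with the oxidase Paox, or directly by spermine oxidase (Smox). Antizyme (Oaz1) sends Odc1 protein to the proteasome, and antizyme inhibitor (Azin1) takes antizyme away from it. Diamine oxidase is a secreted copper amine oxidase that oxidises putrescine and histamine outside the cell.

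The sequences before the starts of Aoc1 and Odc1 are shown because the groups differed for Aoc1 and not beyond error for Odc1, the entry enzyme of the pathway. RefSeq places Aoc1 starts at 2 sites on the plus strand of chromosome 6, and the 250 bases before each (GRCm38.p6, chr6:48895005-48895254 and chr6:48904736-48904985) are given 5′ to 3′ with the 250 bases before the start of Odc1 (chr12:17544623-17544872, plus strand). Capitals mark matches to the motifs searched.
Aoc1, upstream start: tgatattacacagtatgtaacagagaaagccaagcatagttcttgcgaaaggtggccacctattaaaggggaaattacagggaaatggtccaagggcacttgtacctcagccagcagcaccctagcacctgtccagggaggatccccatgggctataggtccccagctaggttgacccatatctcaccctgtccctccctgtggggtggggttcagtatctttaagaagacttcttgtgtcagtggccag
Aoc1, downstream start: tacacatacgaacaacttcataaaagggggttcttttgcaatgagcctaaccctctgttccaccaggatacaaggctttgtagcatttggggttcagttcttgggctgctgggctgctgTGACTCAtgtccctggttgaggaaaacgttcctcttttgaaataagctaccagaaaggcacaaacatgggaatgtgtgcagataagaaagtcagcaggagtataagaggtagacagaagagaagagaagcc
Odc1: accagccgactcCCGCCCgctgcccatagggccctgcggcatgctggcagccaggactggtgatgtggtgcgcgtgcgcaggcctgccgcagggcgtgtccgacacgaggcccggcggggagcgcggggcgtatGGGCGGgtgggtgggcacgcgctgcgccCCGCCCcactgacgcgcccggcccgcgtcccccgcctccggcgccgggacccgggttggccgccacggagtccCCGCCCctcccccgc

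The windows were searched on both strands for the core promoter element spelled TATAAA, the box element spelled CCAAT, the GC box spelled GGGCGG, the E-box spelled CACGTG, the AP-1 site spelled TGANTCA, the CRE spelled TGACGTCA and the core GCGNGGGCG (shared by EGR and WT1 factors, which can overlap a GC box). The downstream Aoc1 window held 1 AP-1 match, 131 to 125 bases before the start, and the upstream window held 0 matches. AP-1 matches occurred in 6.75% of the 32851 RefSeq promoter windows of this length. The Odc1 window held 4 GC boxes and the Aoc1 windows held 0. A GC box occurred in 32.7% of all windows, and among the other members in those of Amd1, Sms, Sat1, Smox and Paox but not of Oaz1. The table held windows for 8 of the 10 genes, and the remaining 2 are Srm and Azin1. A match describes these letters and is not a bound site.

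The arrays were alike in brightness, with a median intensity of 100.3 to 107.6 and 35.7% to 37.7% of probes detected. A probe counts as detected where its detection p against the negative-control beads of its array was under 0.01, and a probe was tested where it was detected on at least 3 of the 6 arrays. Levels are log2 units after background correction and quantile normalization, and a level can be compared between pools for 1 probe but not between probes. Changes are FoxD1;Dicer minus control within litters, with a moderated standard error (SE) and a p-value adjusted over all 16899 tested probes with limma. Genes are represented by the brightest probe that was tested, and called where its adjusted p is under 0.05. The Y-linked gene Eif2s3y had levels of 8.50 (litter 1) and 8.43 (litter 2) in control pools, of 8.21 in the FoxD1;Dicer pool of litter 1, and of 4.28 to 4.38, undetected, in the remaining 3 pools. Litter 2 thus had this Y-linked signal in its control pool and not in its FoxD1;Dicer pool. The brightest Dicer1 probe read 7.31 to 7.58 in control and 6.96 to 7.40 in FoxD1;Dicer pools, with a change of -0.28 ± 0.11 (SE, adjusted p = 0.24) and a dimmer one changed by -0.63 ± 0.13 (adjusted p = 0.045), and whether either probe lies in the deleted exon is not known here. All 6 proximal tubule markers and all 5 collecting duct markers listed were detected and tested, and 0 of 4 adrenal markers were detected on any array.

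Aoc1 was higher in the FoxD1;Dicer pool of every litter. Its probe was detected on all 6 arrays, with raw intensities of 310.9, 351.0 and 453.0 in control pools and of 1048.5, 1386.1 and 905.4 in FoxD1;Dicer pools. After normalization, control pools stood at 7.83, 8.17 and 8.43 log2 units and the FoxD1;Dicer pools at 9.98, 10.19 and 9.85. The lowest FoxD1;Dicer pool lay above the highest control pool, so the groups did not overlap. The mean level was 8.14 ± 0.30 in control and 10.01 ± 0.17 in FoxD1;Dicer kidneys (SD, n = 3), a difference of 1.87 log2 units or 3.65-fold. Within litters the differences were 2.15, 2.02 and 1.42 (4.44-fold, 4.06-fold and 2.68-fold), with an SD of 0.39. Litter 3 had the highest control level and the lowest FoxD1;Dicer level, and gave the smallest difference. Without litter 2, whose pools differed in the Y-linked signal, the mean difference was 1.79. Aoc1 was chosen for this rise, and so these values are a description with no test. Ordered from the highest rise downwards, it stood at position 12 of the 9921 tested genes.

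Odc1, the enzyme that commits ornithine to polyamines, had a change close to 0. It stood at 10.97, 10.95 and 10.82 log2 units in control kidneys and at 11.01, 10.87 and 10.84 in the FoxD1;Dicer pools. The groups overlapped, and the 6 values spanned 0.19 log2 units. The change was -0.0064 ± 0.10 (SE, adjusted p = 0.98), with a 95% interval of -0.25 to 0.24, which in folds is 0.841 to 1.18. A change in either direction as large as that of Aoc1 thus lay outside the interval. Within litters the differences were 0.042, -0.083 and 0.022, smaller than the SE.

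**Figure D1:**
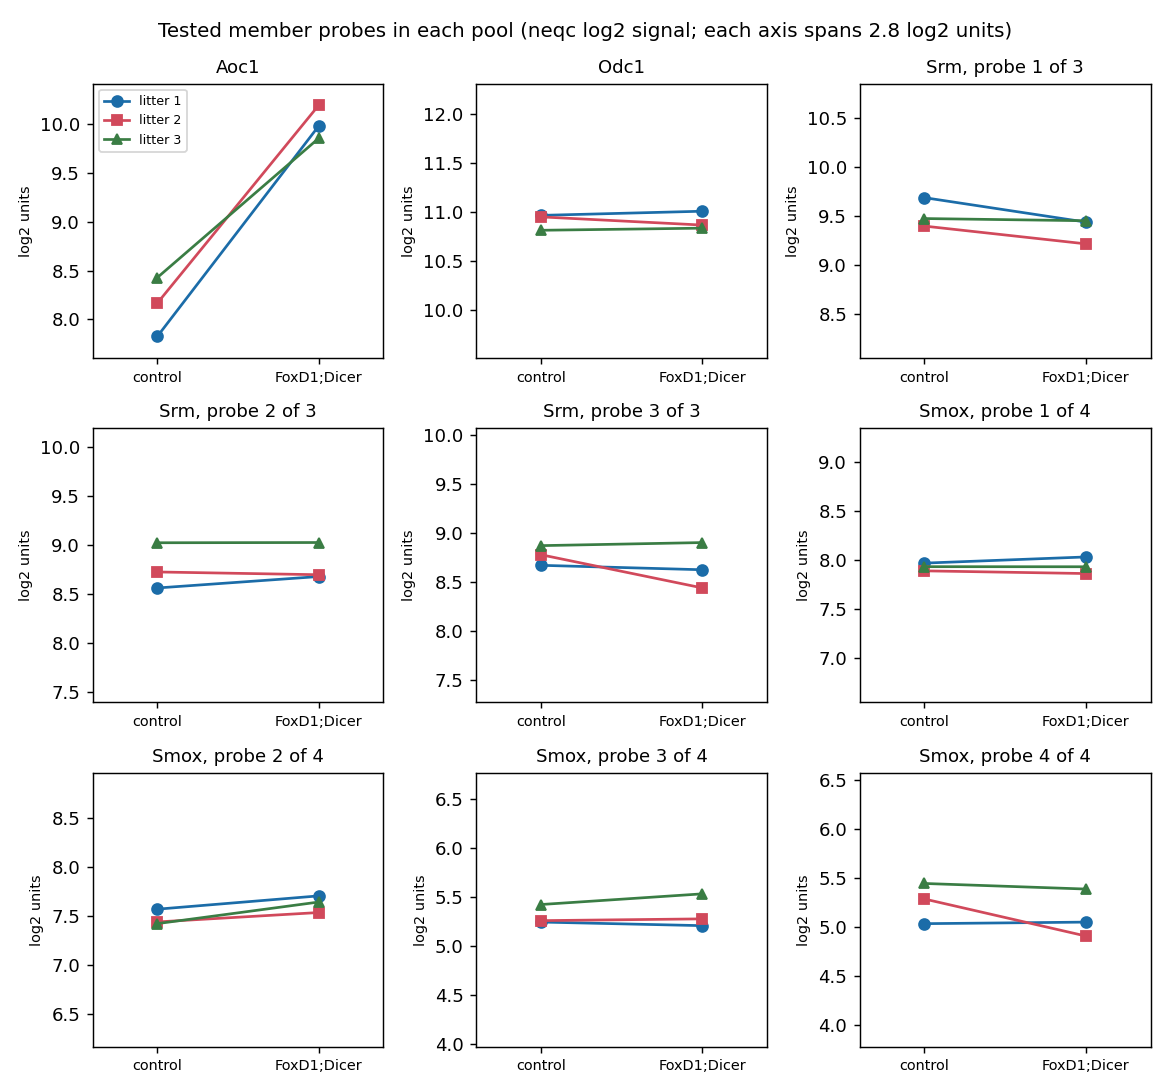
Log2 signal of the 9 tested member probes in each pool, with control on the left and FoxD1;Dicer on the right of every panel, 1 line for each of the 3 litters and axes of equal length that start at different levels. Aoc1 rose from 7.83, 8.17 and 8.43 to 9.98, 10.19 and 9.85, while on the other 8 probes the groups overlapped.

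The aminopropyl transferases were represented by Srm, since the Sms probe was not detected on any array. The brightest Srm probe read 9.69, 9.40 and 9.47 in control kidneys and 9.44, 9.22 and 9.45 in the FoxD1;Dicer pools. It was lower in all 3 litters, by 0.25, 0.18 and 0.02 log2 units, but the groups overlapped and the change of -0.15 ± 0.11 did not pass the test (adjusted p = 0.49, 95% interval -0.41 to 0.10). The other 2 Srm probes gave 0.030 ± 0.10 (adjusted p = 0.91) and -0.12 ± 0.12 (adjusted p = 0.64). The 3 probes thus did not share a direction. The Sms probe read 4.17 to 4.44 log2 units over the 6 pools, at the level of undetected probes, so it says nothing about spermine synthase in these kidneys.

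Smox, which turns spermine back into spermidine, was measured on 5 probes, of which 4 were tested. The brightest stood at 7.97, 7.89 and 7.93 in control kidneys and at 8.03, 7.86 and 7.93 in the FoxD1;Dicer pools. Its groups overlapped, and its change was 0.012 ± 0.10 (adjusted p = 0.97, 95% interval -0.23 to 0.25). The next brightest was higher in all 3 litters, with values of 7.57, 7.44 and 7.43 in control and 7.71, 7.54 and 7.65 in FoxD1;Dicer pools, and its change of 0.15 ± 0.10 did not pass (adjusted p = 0.47). The dimmer pair gave 0.030 ± 0.10 and -0.14 ± 0.12 (adjusted p = 0.91 and 0.58), and the fifth probe was not detected on any array. Which transcripts of Smox each probe reads is not known here.

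Azin1 lay at the edge of detection. Its probe passed the bound on 1 of the 6 arrays, the control pool of litter 3, and was therefore not tested. The control pools read 5.002, 4.93 and 5.22 log2 units and the FoxD1;Dicer pools 4.996, 4.83 and 4.96, so the groups overlapped. With every probe tested regardless of signal, Azin1 gave -0.12 ± 0.079 (adjusted p = 0.67) and Sms 0.032 ± 0.088 (adjusted p = 0.95).

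Of the 3 members other than Aoc1 that could be tested, 0 were called by limma at an adjusted p under 0.05, and 0 had an unadjusted p under 0.05 or a B-statistic above 0. Over all 9921 tested genes 552 were called (5.56%), 239 of them higher (2.41%) and 313 lower (3.15%). Groups that did not overlap in either direction were found for 25.8% of tested genes, and among the 4 tested members for Aoc1 alone. With so few members tested, this count does not set polyamine genes apart from the other genes.

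**Figure D2:**
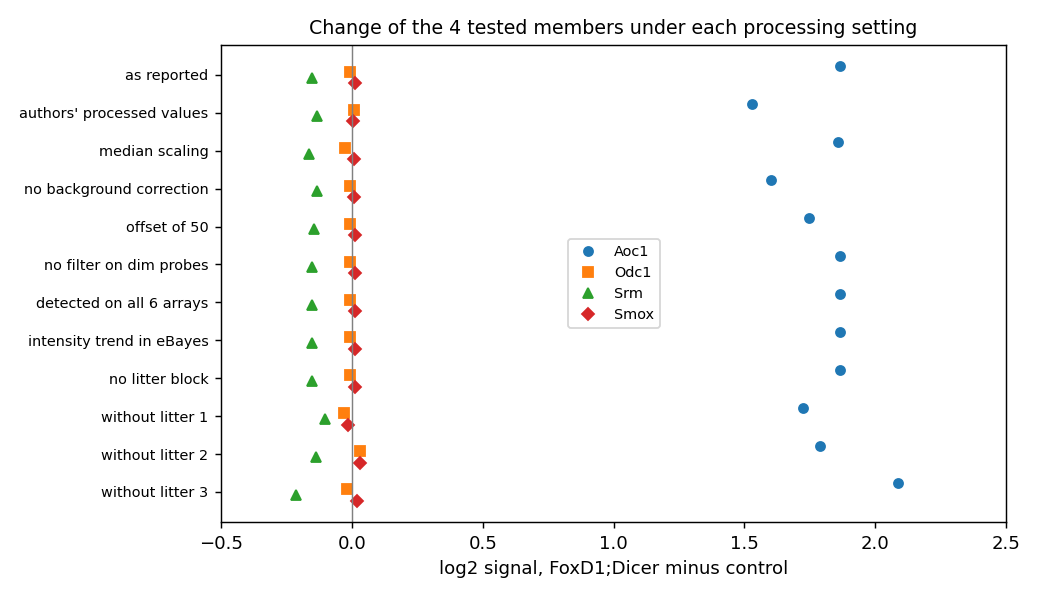
Change of Aoc1, Odc1, Srm and Smox on the horizontal axis (log2 signal, FoxD1;Dicer minus control, brightest tested probe) under each processing setting on the vertical axis. Aoc1 lay between 1.53 and 2.09 and the other 3 members between -0.22 and 0.03.

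For a wider view of the pathway, 57 genes in 9 lists were examined, of which 53 had a named probe and 31 were tested. Called lower were 4 of the 31 (12.9%, beside 3.15% of all tested genes), called higher 0 (beside 2.41%), and 27 did not pass, of which 4 had an unadjusted p under 0.05. The median change of the 31 genes was 0.00071 log2 units, beside 0.011 over all tested genes, with 16 positive and 15 negative. The called genes were Aoc3, Maob, Ass1 and Gatm, and without litter 2 the count was 0 of 31.

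Both tested amine oxidases of the lists, Aoc3 and Maob, fell, whereas Aoc1 was higher. Aoc3, a copper amine oxidase like diamine oxidase but bound to the membrane of smooth muscle and endothelial cells and acting on primary monoamines, stood at 8.28, 8.29 and 8.38 log2 units in control kidneys. In the FoxD1;Dicer pools it read 6.38, 5.03 and 5.06, below every control pool, and its detection p was 0.00962 in both litters 2 and 3, just under the bound. Its change was -2.83 ± 0.27 (adjusted p = 0.0035), or 7.09-fold lower, and its dimmer probe was not detected on any array. Within litters Aoc3 fell by 1.90, 3.26 and 3.31, so that litter 1 showed the smallest fall of Aoc3 and the largest difference of Aoc1. Without litter 2 the call was lost (-2.61, adjusted p = 0.063), and with the authors' processed values the change was -1.31. Of the stromal markers, 2 of 5 were called lower by their brightest probe, and each one was detected. Their summed signals of 3750 to 4876 in control and 2850 to 3942 in FoxD1;Dicer pools overlapped. A dimmer probe of Meis1 gave -0.74 ± 0.12 (adjusted p = 0.020), and dimmer probes of Dcn gave -0.33 ± 0.12 and -0.83 ± 0.14 (adjusted p = 0.19 and 0.026). Of the endothelial markers 0 of 3 tested were called, with sums of 951 to 1147 and 921 to 995, and Kdr was not detected on any array. The part of these cells in the fall of Aoc3 was not tested.

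Maob, a mitochondrial monoamine oxidase that also acts on methylated histamine, was detected on the 3 control arrays (5.31, 5.32 and 5.51 log2 units) and not well above background on any FoxD1;Dicer array. Its limma change was -0.75 ± 0.11 (adjusted p = 0.016), with the undetected signals taken as read. A separate estimate, to which no test belongs, put Maob 1.41-fold lower. The estimate sets the control mean against the higher of the lowest detected signal and the probe's own signal on each FoxD1;Dicer array. In litter 3 the lowest detected signal was 4.21 and the probe's own undetected signal 4.57, so the estimate is not a strict lower limit. It holds for the main processing only. The log2 change was -0.15 with the authors' processed values, -0.22 with no background correction and -0.37 with an offset of 50. The call was lost in the first 2 of these (adjusted p = 0.16 and 0.090), with no filter on dim probes (0.051) and without litter 2 (0.16). Maoa and Aoc2 were not tested.

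Histamine is the other main substrate of diamine oxidase, and the gene that makes it was detected on every array. Hdc, histidine decarboxylase, read 12.12, 12.66 and 12.48 in control kidneys and 12.31, 12.66 and 12.60 in the FoxD1;Dicer pools. The groups overlapped, and the change was 0.099 ± 0.10 (adjusted p = 0.66, 95% interval -0.15 to 0.35). A dimmer Hdc probe gave -0.25 ± 0.12 (adjusted p = 0.29). Hnmt, which inactivates histamine inside the cell, and the receptor genes Hrh1, Hrh2, Hrh3 and Hrh4 were not detected on any array. Of the mast cell markers, Mcpt4, Tpsb2 and Fcer1a were not detected on any array, and 0 of the 2 tested were called, with sums of 256 to 345 in control and 233 to 296 in FoxD1;Dicer pools.

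Among genes that supply ornithine and arginine, 2 of 7 tested were called, both lower. Ass1, argininosuccinate synthase, through which the proximal tubule makes arginine, stood at 10.25, 10.72 and 10.60 in control kidneys and at 9.26, 9.40 and 9.66 in the FoxD1;Dicer pools. The groups did not overlap, and Ass1 was 2.12-fold lower (log2 change -1.08 ± 0.12, adjusted p = 0.0054; 0.076 without litter 2). Gatm, which passes the amidino group of arginine to glycine and releases ornithine, read 5.28, 5.72 and 5.60 in control kidneys. On the FoxD1;Dicer arrays Gatm was not well above background. Its limma change was -0.84 ± 0.11 (adjusted p = 0.0093). Estimated as for Maob, and again with no test, Gatm was 1.57-fold lower. That estimate too is not a strict lower limit and holds for the main processing only. The log2 change was -0.17 with the authors' processed values, -0.26 with no background correction and -0.43 with an offset of 50. The call was lost in the first 2 of these (adjusted p = 0.11 and 0.052) and without litter 2 (0.11).

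Arg2, the mitochondrial arginase that makes ornithine, had values of 7.10, 6.84 and 6.84 in control and 6.48, 6.70 and 6.67 in FoxD1;Dicer pools. Its groups did not overlap, but its change of -0.31 ± 0.13 did not pass (adjusted p = 0.26). Slc25a15, the mitochondrial ornithine carrier, gave -0.16 ± 0.11 on its brightest probe (adjusted p = 0.47). Its dimmer probe gave 0.23 ± 0.10 (adjusted p = 0.28), so the probes disagreed in direction. Arg1 and Otc were not detected on any array. The proximal tubule markers moved with Ass1 and Gatm: 6 of 6 were called lower, and their summed normalized signal was 9502 to 13783 in control and 4650 to 6567 in FoxD1;Dicer pools, with each marker detected in control kidneys. Their part in these falls was not tested.

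**Figure D3:**
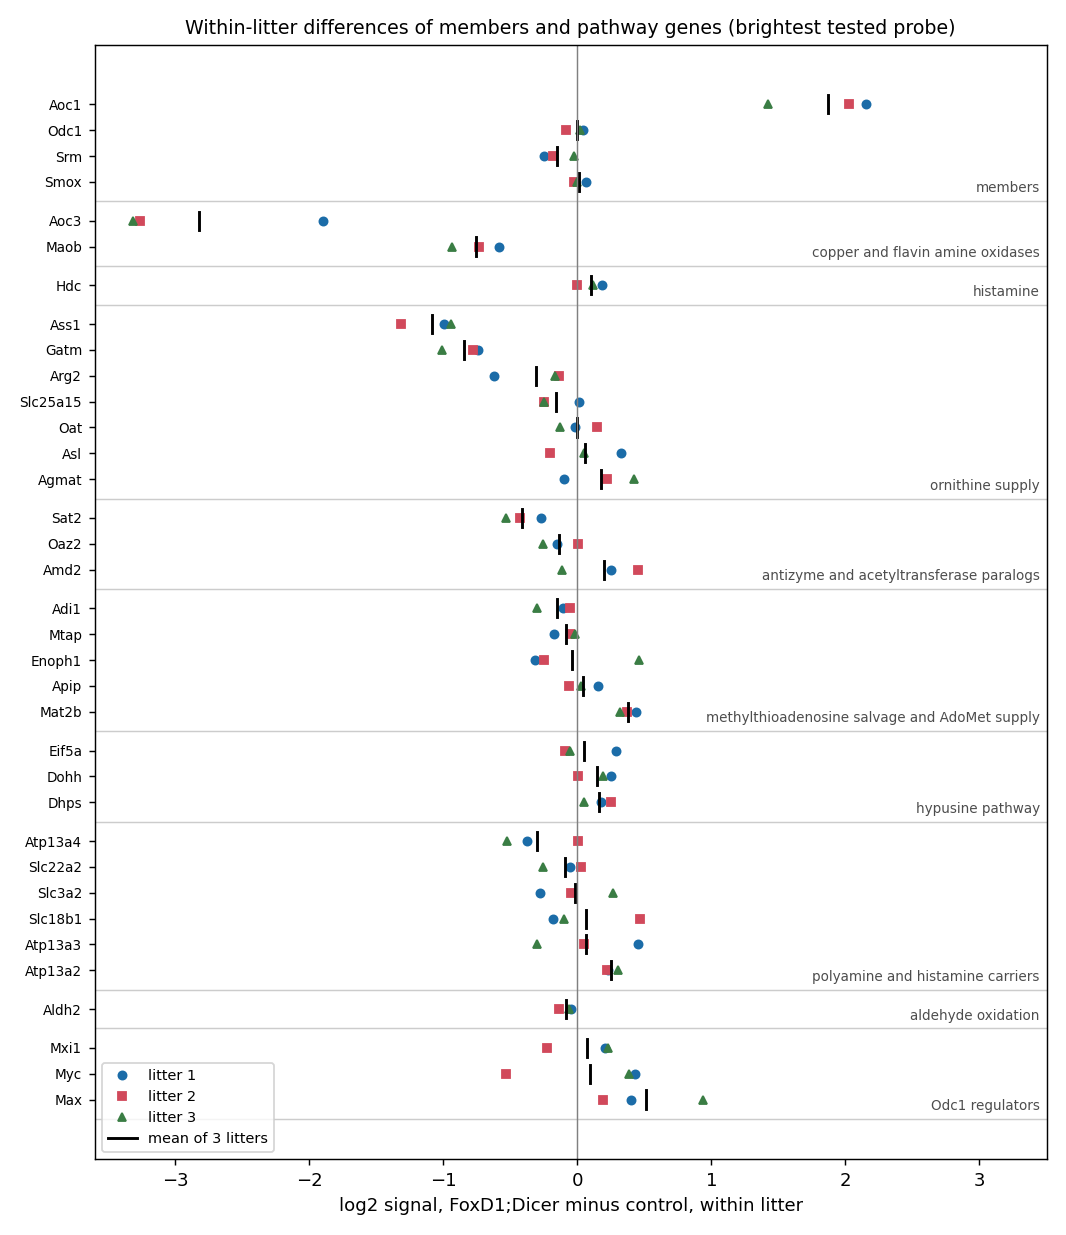
Within-litter difference (horizontal axis, log2 signal, FoxD1;Dicer minus control) of the 4 tested members and the 31 tested pathway genes, 1 symbol for each of 3 litters and a bar at their mean. Aoc1 lay at 1.42 to 2.15, Aoc3 at -3.31 to -1.90, and most other genes lay near 0.

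In the lists closest to the core enzymes 0 genes were called by limma, with 1 of 3 paralogs and 1 of 5 salvage genes at an unadjusted p under 0.05. Sat2, a relative of the spermidine acetyltransferase Sat1, was lower in every litter, with 6.98, 7.08 and 7.10 in control and 6.71, 6.65 and 6.57 in FoxD1;Dicer pools. Its groups did not overlap, and its change of -0.41 ± 0.11 missed the threshold (adjusted p = 0.095). The probe annotated to Amd2 gave 0.20 ± 0.14 (adjusted p = 0.48). Amd2 is a close copy of Amd1, and which of their transcripts this probe reads is not known here. Mat2b, the regulatory subunit of the enzyme that makes S-adenosylmethionine, gave 0.37 ± 0.10 on its brightest probe (adjusted p = 0.10), 0.32 ± 0.13 on a dim one (adjusted p = 0.24) and -0.066 ± 0.13 on one between them (adjusted p = 0.83), so its probes disagreed in direction. Adi1, of the salvage of methylthioadenosine, gave -0.15 ± 0.11 (adjusted p = 0.49).

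Antizyme 1 itself had no named probe. A probe annotated to its pseudogene Oaz1-ps, which stands outside the lists and was chosen after its values were seen, read 11.32, 11.21 and 11.36 in control and 11.31, 11.41 and 11.28 in FoxD1;Dicer pools. The groups overlapped (change 0.036 ± 0.11, adjusted p = 0.90), and whether the probe also reads Oaz1 is not known here.

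Spermidine is also the donor for hypusine, the modified lysine of eIF5A. Dhps and Dohh, the enzymes of that step, gave 0.16 ± 0.10 (adjusted p = 0.46) and 0.15 ± 0.11 (adjusted p = 0.51). Of the 6 carriers tested, 0 were called, and 1 had an unadjusted p under 0.05. That was Atp13a2, which moves polyamines out of lysosomes, with 0.25 ± 0.10 (adjusted p = 0.24), while its relative Atp13a4 gave -0.30 ± 0.13 (adjusted p = 0.27). Aldh2, which oxidises aldehydes, gave -0.082 ± 0.10 (adjusted p = 0.71). Among the regulators of Odc1 transcription, Max gave 0.51 ± 0.16 (adjusted p = 0.14) and was detected on 1 of 3 control and 3 of 3 FoxD1;Dicer arrays, and Mxi1 gave 0.069 ± 0.13 (adjusted p = 0.82).

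The tested genes whose levels most resembled those of Aoc1 over the 6 arrays were H2-DMa, Ubd, Cyp4v3, Hspb1 and Cd74, with Pearson r of 0.998, 0.998, 0.996, 0.996 and 0.995. H2-DMa and Cd74 serve antigen loading on MHC class II, Ubd encodes a ubiquitin-like protein, Cyp4v3 a fatty acid hydroxylase and Hspb1 a small heat shock protein. These r values are a description over 6 arrays in 2 groups, and any gene that separates the groups as Aoc1 does comes near to them. Their sizes differed, from 0.54 log2 units for H2-DMa and 0.55 for Hspb1 to 0.66 for Cyp4v3 and 2.68 for Cd74, beside 1.87 for Aoc1. Ubd was not detected on any control array (4.45, 4.57 and 4.93 log2 units). Estimated as for Maob with the groups exchanged, it was 2.94-fold higher. That value is not a strict lower limit and was made for the main processing only.

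**Figure D4:**
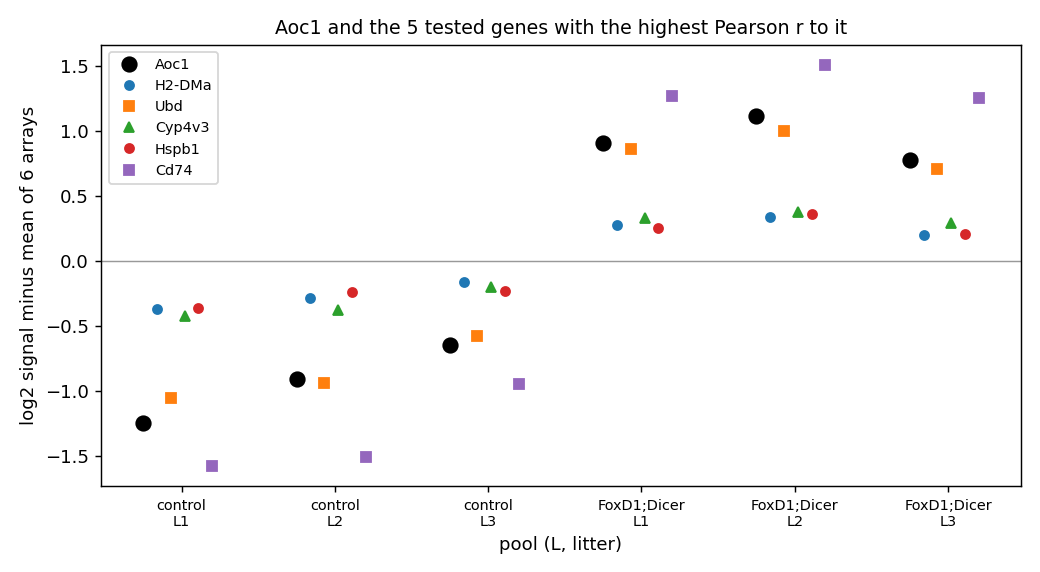
Log2 signal minus the mean of the 6 arrays (vertical axis) for Aoc1 and the 5 genes with the highest Pearson r to it (0.995 to 0.998), in each pool (horizontal axis, L for litter). All 6 genes were below their mean in the 3 control pools and above it in the 3 FoxD1;Dicer pools.

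The tested macrophage markers were higher in FoxD1;Dicer pools, as Aoc1 was. All 3 that were tested were called higher, with changes of 1.05 log2 units for Adgre1, 2.68 for Cd74 and 0.62 for Csf1r. Their summed normalized signal was 196 to 223 in control and 621 to 736 in FoxD1;Dicer pools. Cd74 had the largest change of these markers and weighed most in the FoxD1;Dicer sums. Its mean there was 8.74 log2 units, beside 7.08 for Adgre1 and 6.81 for Csf1r. Cd74 was also picked above for its high r with Aoc1, so its likeness is no separate observation. Ptprc was not detected on any array. Both tested neutrophil markers, S100a8 and S100a9, were called higher as well, with sums of 275 to 332 and 897 to 1084. Camp was not detected on any array. Ngp was detected on 1 array and not tested, with litter differences of -0.11, 0.67 and -0.07. Of 5 collecting duct markers, Fxyd4 was called higher and Aqp2 lower, and the sums overlapped (2820 to 3293 in control and 2736 to 3038 in FoxD1;Dicer pools). Of the 5 urothelial markers tested, Upk3a was called higher, and the sums of 496 to 989 and 651 to 1191 overlapped. Upk3b was higher in all 3 litters but did not pass (adjusted p = 0.092). Upk1a, Upk1b and Upk2 were higher in litter 1 and lower in litters 2 and 3. Krt5 was not detected on any array. Of 4 nephron progenitor markers, Cited1 and Eya1 were called higher, Gdnf was called lower and Six2 did not pass (0.56 ± 0.12, adjusted p = 0.056). Their sums of 909 to 967 in control and 807 to 933 in FoxD1;Dicer pools overlapped. The part of any of these cells in the difference of Aoc1 was not tested.

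RefSeq places Aoc1 beside Gm7932, Tmem176a and Tmem176b on one side and beside the diamine oxidase-like genes Doxl1, Doxl2 and Svs1 on the other. Gm7932, the nearest on its side, was not tested. This comparison was added after the data were examined. Probes of Doxl1, Doxl2 and Svs1 were not detected on any array and read 4.18 to 4.68 log2 units, so a signal of these relatives was not seen beside that of Aoc1. Tmem176b gave 0.46 ± 0.10 (adjusted p = 0.059) and Tmem176a 0.19 ± 0.11 (adjusted p = 0.40).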

How the data were processed

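Whole-kidney RNA of 6 pools was measured on 1-colour Illumina arrays. Per the file headers, the deposited table pairs the intensity of every probe on an array with its detection p-value, and the intensity had been neither background-corrected nor normalized. The authors' second table holds log2 values for which the study's methods name lumi without settings, and it served as an alternative. Of 45281 rows, 8 damaged ones were left out (missing or repeated name, missing cell, or intensity under 80). The annotation gave 1 symbol to 34877 probes, several to 18 and none to 10378, and 34799 matched the RefSeq table by gene ID.

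Intensities were processed with neqc (background from detection p-values, offset 16, quantile, log2) in limma 3.58.1 under R 4.3.3. Probes detected at p under 0.01 on at least 3 arrays were tested with lmFit and eBayes, with genotype and with litter as a block as in the study's methods (2 residual and 4.76 prior degrees of freedom, median SE 0.12), and Benjamini-Hochberg adjustment over all 16899 tested probes. The number of arrays limits the precision. Litter numbers come from the sample labels, and the deviations of pools of a litter correlated at 0.14 to 0.19 over tested probes. The fit was tested on simulated data.

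The members and lists were chosen with earlier results of these data known. Named are all members with every probe, every called gene of the 9 lists with up to 2 further genes a list by lowest adjusted p, Dicer1, Foxd1, Eif2s3y and the 5 genes nearest Aoc1 by Pearson r. List genes that were not tested are named without values. Foxd1 gave 0.036 ± 0.22 (adjusted p = 0.95), from litter differences of -0.61, 0.10 and 0.62. By quantitative PCR, the study reported lower FoxD1 transcripts in FoxD1;Dicer kidneys at E18.5. Alternatives were other normalizations, filters, an intensity trend, no block, the mean of a gene's probes, the B-statistic and each litter left out.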

Additional observations from a re-analysis of the deposited data

How the results depend on the processing

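The difference of Aoc1, which was chosen for it, was 1.53 log2 units with the authors' processed values and 1.72 to 2.09 with 1 litter left out; the filter, the intensity trend and the block cannot move it in this balanced design. The 0 calls among the members other than Aoc1 held under all 13 alternatives, with 0 unadjusted p under 0.05 in each, and their count without single litters was 0 to 0. Changes near 0 changed sign: Odc1 was 0.0063 with the authors' values and ranged from -0.031 to 0.032 with 1 litter left out (0.032 without litter 2), and Smox ranged from -0.014 (without litter 1) to 0.031. The 4 pathway calls became 2 when detection on all 6 arrays was required, which left 28 genes of the lists in the test, and 0 to 4 with 1 litter left out. The count of 0 came without litter 2, by limma, where 9 of 31 genes had an unadjusted p under 0.05 and 44 genes were called over all tested. The cause was not tested. Over all tested genes the 552 calls became 265 with no filter on dim probes, 865 with an intensity trend and 343 by a B-statistic above 0. With no litter block (replicate block left out) 528 genes were called over all tested, beside 552 with it. Among them were 0 members other than Aoc1 and 4 pathway genes. Aoc1 differed by 1.87, and Odc1, Srm and Smox gave -0.0064, -0.15 and 0.012. The block thus changed no call of Odc1, Srm and Smox or of the list genes Aoc3, Ass1, Gatm and Maob. The refits of these 4 list genes and of the counts over all tested genes were chosen after seeing the data. Sms, Azin1, Maob and Gatm lie near background, and the changes of Maob and Gatm moved with how background was taken off.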
